A study of Mus musculus with 24 samples.

Results

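Fhit, Wwox, Immp2l, Macrod2, Exoc4, Auts2 and Gphn are among the longest protein-coding genes of the mouse, and their newly made RNA was followed here in embryonic stem cells. They were chosen by name, as genes of about 500 kb or more. No measured value entered the rule, but earlier results of these data were known when it was made. They are 7 of the 56941 genes listed, and 6 of them, all but Fhit, had enough reads to be among the 22448 genes tested.

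The cells belonged to the E14TG2a line and were grown with serum, LIF and the MEK and GSK3 inhibitors PD0325901 and CHIR99021. They were fed 1 mM EU (5-ethynyl uridine), a uridine analog built into growing transcripts, for 10, 20, 40 or 60 min, and EU-labelled RNA was captured and sequenced together with labelled Drosophila RNA added as a spike-in. The genotypes were Alkbh5 del-cIDR, Alkbh5 KO and WT, with 2 libraries at each of 4 labelling times, 24 libraries in 12 groups. ALKBH5 removes the N6-methyl mark from adenosines in RNA, and the labels do not spell out which residues the del-cIDR allele lacks. The labels do not give the number of clones behind a genotype. They describe dishes seeded the day before labelling, with nothing on separate cultures, so the spread that p-values rest on may be technical.

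RNA polymerase II travels at a few kilobases a minute, so a polymerase that enters the longest of these genes needs hours to reach its end, far longer than any of the labelling pulses. RNA labelled in a short pulse therefore comes from polymerases already spread along the gene, and most of it is intron. Very long genes are also known for replicating late and for breaking under replication stress: in human cells FHIT and WWOX span well-known common fragile sites, and IMMP2L, MACROD2 and AUTS2 are frequent sites of deletion or rearrangement.

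By the GENCODE M21 annotation, Macrod2 (ENSMUSG00000068205, chromosome 2, plus strand) spans 1997.7 kb, of which exons cover 10.31 kb. Fhit (ENSMUSG00000060579, chromosome 14, minus strand) spans 1611.9 kb with 1.49 kb of exon, and Auts2 (ENSMUSG00000029673, chromosome 5, minus strand) 1106 kb with 22.89 kb of exon. Immp2l (ENSMUSG00000056899, chromosome 12, plus strand) spans 931.5 kb with 1.83 kb of exon, and Wwox (ENSMUSG00000004637, chromosome 8, plus strand) 913.1 kb with 10.17 kb. Exoc4 (ENSMUSG00000029763, chromosome 6, plus strand) spans 724.9 kb with 12.64 kb of exon. Gphn (ENSMUSG00000047454, chromosome 12, plus strand) spans 458.4 kb in that annotation, just under 500 kb, with 3.75 kb of exon. Exons made up between 0.0925% (Fhit) and 2.07% (Auts2) of each span. The deposited table was built on GRCm39 and that annotation on GRCm38, so positions within the genes are not compared. Whether reads were counted over exons or over whole genes is not given in the sources used here.

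Promoter windows were listed by RefSeq (GRCm38.p6) for 5 of the 7 genes, Wwox and Auts2 being the ones without. The 250 bases before the start are printed for the genes with the highest and the lowest level among those 5, Exoc4 (chr6:33248878-33249127, plus strand) and Fhit (chr14:11162036-11162285, minus strand), with every CpG dinucleotide in capitals.
Exoc4: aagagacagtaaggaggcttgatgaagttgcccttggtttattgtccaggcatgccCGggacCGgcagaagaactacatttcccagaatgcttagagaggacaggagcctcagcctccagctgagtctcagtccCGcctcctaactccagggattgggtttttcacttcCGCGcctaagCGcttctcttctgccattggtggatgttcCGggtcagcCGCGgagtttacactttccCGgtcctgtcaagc
Fhit: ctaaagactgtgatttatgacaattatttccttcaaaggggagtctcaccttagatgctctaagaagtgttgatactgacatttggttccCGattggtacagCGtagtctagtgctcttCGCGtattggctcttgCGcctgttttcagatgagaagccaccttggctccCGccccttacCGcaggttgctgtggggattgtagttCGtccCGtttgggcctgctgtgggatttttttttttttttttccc
The letters CG occur 10 times in the Exoc4 window and 9 times in the Fhit window, counts reached by 37.8% and 40.3% of the 32851 RefSeq promoter windows of that length. CpG was denser in front of Gphn with 34, Macrod2 with 30 and Immp2l with 24, counts reached by 3.5%, 5.9% and 12% of windows. Fhit and Macrod2 each had another listed start, with 6 and 29. The letters TATAAA, searched on both strands, were in none of the windows of these 5 genes and in 12.4% of all windows. The windows of the genes with the highest and the lowest level among these 5 thus held nearly the same number of CpG.

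The deposited table gives log2 ratios over both libraries of a group, from which whole reads of each library were worked out. Of each pair of values below, the first is from the library with more spike-in reads, and the order carries no replicate number. Libraries held 3129081 to 22159977 reads over genes and 6037 to 23382 spike-in reads. A level is the read number a library would have with 11714 spike-in reads. Where no scale is named, values are log2(level + 1) minus the median of the tested genes in that library, so that a change shared by all genes is removed. On the spike-in scale the median gene lay 0.31 (log2) higher in KO than in WT, 0.17 higher in del-cIDR than in WT and 0.14 lower in del-cIDR than in KO. Alkbh5 itself lay 0.60 ± 0.06 below WT in KO and 0.46 ± 0.06 below WT in del-cIDR (log2 ± SE, limma, adjusted p = 1.21e-05 and 2.09e-04). A read count per gene, with no position within it, does not check either edit. All 8 listed markers of pluripotent stem cells were read in every library, with mean levels from 2646 (Klf4) to 14069 (Zfp42). Mean levels in the other lists ran from 0.210 (Dcx) to 2167 (Nes) for neural and from 0.746 (Twist2) to 63.9 (Pdgfra) for fibroblast markers. They ran from 0.820 (Cdx2) to 483 (Tfap2c) for trophoblast and from 10.2 (Sox17) to 2401 (Sparc) for extraembryonic endoderm. Of 5 tested neural markers 3 fell in del-cIDR (Nes, Tubb3, Map2) and 4 rose in KO (Pax6, Nes, Tubb3, Map2), by limma with adjusted p. Of the pluripotency markers 1 rose and 2 fell in del-cIDR and 1 rose and 3 fell in KO. Of 3 tested fibroblast markers 1 fell in KO, of 5 of extraembryonic endoderm 2 fell in del-cIDR and 1 rose and 1 fell in KO, and of 3 of trophoblast 1 rose in del-cIDR. The summed neural level ran from 430 to 3093 in del-cIDR, 1956 to 8359 in KO and 732 to 4265 in WT libraries. Several of the very long genes are also used in neurons, and the part of these cells in the results was not tested. In bulk samples fewer cells of a type and less RNA per cell cannot be told apart.

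Labelled RNA of the 7 genes covered a wide range. Per kilobase of exon, Exoc4, a subunit of the exocyst complex that tethers secretory vesicles to the plasma membrane, had a mean level of 602 ± 322 (SD over 24 libraries, all genotypes and times pooled). Next came Wwox, an oxidoreductase with WW domains, at 81.2 ± 39.9, and Auts2, a nuclear protein of a variant Polycomb complex, at 56.3 ± 28.6. Gphn encodes gephyrin, the scaffold of inhibitory synapses and an enzyme of molybdenum cofactor synthesis, and averaged 40.0 ± 24.4. Immp2l, a subunit of the inner mitochondrial membrane peptidase, averaged 30.8 ± 15.2. Macrod2, a macrodomain hydrolase that removes ADP-ribose from proteins, averaged 17.8 ± 10.5. Fhit, a hydrolase of diadenosine triphosphate, was last at 0.989 ± 1.34. These spreads include the gain with labelling time. The order was the same in each genotype when its 8 libraries were averaged. Within libraries, the order of neighbours held in 24 of 24 for Exoc4 over Wwox, Wwox over Auts2, Immp2l over Macrod2 and Macrod2 over Fhit, and in 23 for Auts2 over Gphn. Gphn was higher than Immp2l in 17 of 24 libraries, by a mean log2 ratio of 0.29 ± 0.44 (SD over libraries). Whether this mean differs from 0 was not tested. This order and its counts depend on the division by exon length. Undivided, the mean level of Auts2 (1289) was above that of Wwox (826). That of Macrod2 (183) was then above those of Gphn (150) and Immp2l (56.5).

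**Figure D1:**
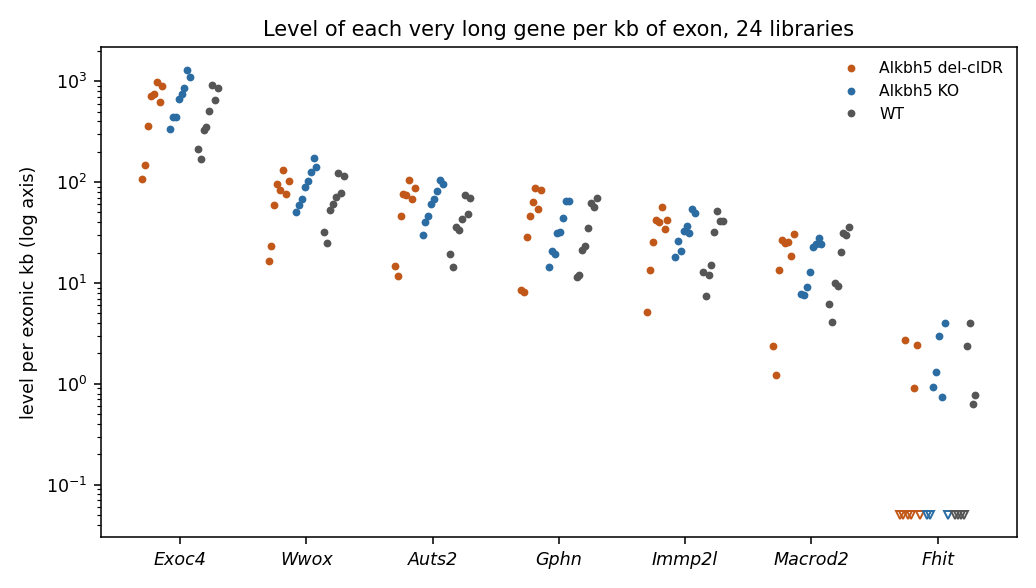
Level per kilobase of exon on a log axis (reads at 11714 spike-in reads, divided by exon length) for the 7 genes in all 24 libraries, each genotype's 8 libraries running from 10 to 60 min from left to right; open triangles at the foot mark libraries with 0 reads. Exoc4 lies above all other genes in every library, and Fhit has 0 reads in 12 libraries.

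Exoc4 was read deeply, with 1860 to 13785 reads per library, and its mean level of 7614 on the spike-in scale was not per length. Auts2 had 273 to 2024 reads and Wwox 228 to 1460 reads per library. Macrod2 had 13 to 327, Gphn 31 to 253 and Immp2l 13 to 82 reads, and their values carry correspondingly more counting error. Across the 14619 tested protein-coding genes the mean level was correlated with exon length (Spearman rho 0.402) and less with span (0.236), given as a description across genes that are not independent.

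Fhit gave 35 reads in all, 11 in del-cIDR, 13 in KO and 11 in WT, and was left out of the tests. Pairs of libraries at 10, 20, 40 and 60 min held 0 / 0, 6 / 0, 0 / 1 and 4 / 0 reads in del-cIDR. The KO pairs held 0 / 0, 2 / 1, 4 / 1 and 5 / 0 reads. The WT pairs held 0 / 0, 0 / 0, 4 / 5 and 1 / 1 reads. All 6 libraries of 10 min labelling were thus at 0 reads, and some of later times were as well. The 10 min libraries held 3129081 to 12279330 gene reads, and the later ones 5586645 to 22159977. Totals of up to 35 reads were found for 45.8% of genes. A count of 0 allows up to 3 reads, which came to levels of 1.5 to 4.91 in the 12 libraries at 0 and covers counting error only. In the authors' deposited table Fhit reads 5.06 in WT at 40 min, the largest log2 ratio to 10 min among the 7 genes in that group, and it rests on 4 and 5 reads against 0. Labelled Fhit RNA was not detectable at 10 min at this depth.

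Genotype differences were then compared gene by gene. Averaged over the 4 labelling times, 3 of the 6 tested genes rose in KO against WT (Auts2, Exoc4, Wwox) and 0 fell, where 30.1% of all tested genes passed, 14.6% higher and 15.5% lower. In del-cIDR against WT, Auts2 rose and Macrod2 fell, where 25.2% of all genes passed, 10.4% higher and 14.8% lower. Between the mutants, Wwox, Exoc4 and Auts2 were lower and Gphn higher in del-cIDR than in KO, and 43.4% of all genes passed there, 21% higher and 22.4% lower. The median difference of the 6 genes was 0.25 in KO against WT, -0.01 in del-cIDR against WT and -0.20 in del-cIDR against KO, beside medians of -0.01, -0.02 and 0.01 over all tested genes. With so large a share of all genes passing, the counts over 6 genes single nothing out. The comparisons share libraries and are set side by side only.

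Auts2 was the gene that rose in both mutants. Its pairs of relative log2 values at 10, 20, 40 and 60 min were 3.45 / 3.05, 3.24 / 3.30, 3.19 / 3.32 and 3.27 / 3.24 in del-cIDR. In KO the Auts2 pairs were 3.35 / 3.52, 3.55 / 3.74, 3.40 / 3.42 and 3.41 / 3.38. In WT they were 3.14 / 3.08, 3.24 / 3.24, 2.90 / 3.06 and 2.87 / 2.99. Both KO libraries lay above both WT libraries at each of the 4 times, and both del-cIDR libraries did so at 40 and 60 min. Auts2 rose in KO by 0.40 ± 0.06 (log2 ± SE, limma, adjusted p = 1.39e-04), with differences of 0.32, 0.41, 0.43 and 0.46 at 10, 20, 40 and 60 min. It rose in del-cIDR by 0.19 ± 0.06 (limma, adjusted p = 0.0291) and was 0.21 ± 0.06 lower there than in KO (limma, adjusted p = 0.0101). The median tested gene of chromosome 5 differed by -0.01 in KO and by 0.00 in del-cIDR, and the KO call also held relative to that median and on the spike-in scale. The smaller del-cIDR call was lost relative to chromosome 5 (0.17, adjusted p = 0.0635), on the spike-in scale (0.36, adjusted p = 0.215), and when any of 9 libraries was left out (0.17 to 0.20, adjusted p of 0.0501 to 0.0735). These were, in del-cIDR, the second of the pair at 20 and 40 min and both at 60 min, and in WT the second at 10 min, both at 20 min and the first at 40 and 60 min. Of 5 tested neural markers 4 were higher in KO and 3 lower in del-cIDR, as given above, and their part in the Auts2 values was not tested.

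Exoc4 and Wwox rose in KO by about as much as the median genes of their chromosomes, 6 and 8, differed. Relative log2 values of Exoc4 at 10, 20, 40 and 60 min were 5.46 / 5.84, 5.36 / 5.66, a single 5.68 and 5.64 / 5.75 in del-cIDR. In KO the Exoc4 pairs were 5.99 / 6.09, 5.93 / 6.35, a single 5.97 and 6.17 / 6.04. In WT they were 5.74 / 5.78, 5.56 / 5.77, 5.60 / 5.81 and a single 5.76. A single value stands where the reads of both libraries could not be told apart, and such a group entered the fit with 1 value. Both KO libraries lay above both WT libraries at 10 and 20 min. At 40 min the single KO value lay above both WT libraries, and at 60 min both KO libraries lay above the single WT value. Exoc4 rose in KO by 0.35 ± 0.10 (limma, adjusted p = 0.0182), and the median tested gene of chromosome 6 differed by 0.40. Without the filter on low levels, where the library median is taken over more genes, the call was lost (0.41, limma, adjusted p = 0.0522). In del-cIDR it was 0.44 ± 0.10 lower than in KO (limma, adjusted p = 0.00345), beside a chromosome median of -0.49 (on the spike-in scale -0.59, adjusted p = 0.0558), and it did not pass against WT (-0.09, 95% interval -0.30 to 0.12).

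Relative log2 values of Wwox at 10, 20, 40 and 60 min were 2.44 / 2.87, 2.45 / 2.46, 2.19 / 2.47 and 2.28 / 2.29 in del-cIDR. In KO the Wwox pairs were 2.94 / 2.89, 2.93 / 3.14, 2.80 / 2.86 and 2.94 / 2.75. In WT they were 2.69 / 2.71, 2.62 / 2.93, 2.46 / 2.61 and 2.39 / 2.54. KO libraries lay above WT libraries at 10, 40 and 60 min and overlapped them narrowly at 20 min, and del-cIDR libraries lay below KO libraries at all 4 times. Wwox rose in KO by 0.29 ± 0.07 (limma, adjusted p = 0.00939), where the median tested gene of chromosome 8 differed by 0.33. It was 0.47 ± 0.07 lower in del-cIDR than in KO (limma, adjusted p = 1.29e-04), where the chromosome median was -0.46. Against WT the del-cIDR difference of -0.19 did not pass (95% interval -0.35 to -0.03, limma, adjusted p = 0.0788), and it passed without the 10 min libraries (-0.24, limma, adjusted p = 0.0451). Relative to the median gene of their own chromosomes, the KO differences of Exoc4 and Wwox were -0.01 and -0.05 and the del-cIDR differences from KO 0.01 and -0.03, and none of the 4 passed (limma, adjusted p = 0.964, 0.710, 0.963 and 0.814).

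**Figure D2:**
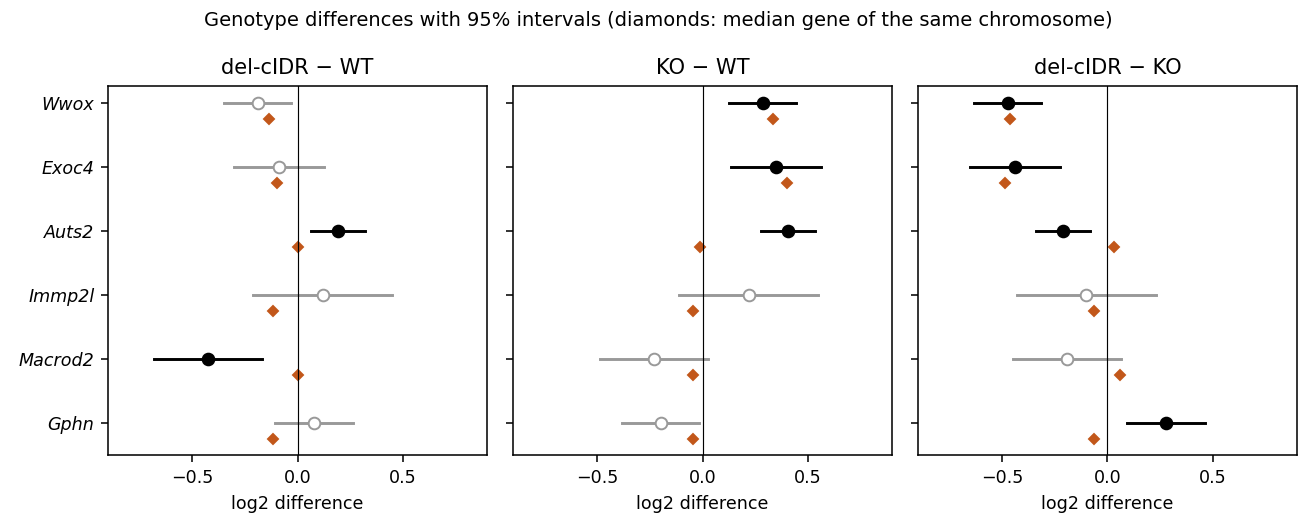
Log2 difference (mean of 4 labelling times, with 95% interval) of the 6 tested genes for del-cIDR minus WT, KO minus WT and del-cIDR minus KO; filled black points passed at an adjusted p of 0.05, open grey points did not, and orange diamonds give the median tested gene of the same chromosome. Exoc4 and Wwox lie near their chromosomes' medians in all 3 panels, and Auts2 lies 0.40 above WT in KO with its chromosome at -0.01.

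Macrod2 was the only one of the 6 genes whose fall in del-cIDR against WT passed. Its relative log2 values at 10, 20, 40 and 60 min were -0.30 / -1.24, 0.34 / 0.65, 0.46 / 0.13 and 0.26 / 0.58 in del-cIDR. In KO the Macrod2 pairs were 0.27 / -0.03, 0.07 / 0.36, 0.67 / 0.51 and 0.34 / 0.24. In WT they were 0.36 / 0.14, 0.24 / 0.27, 0.67 / 0.67 and 1.04 / 0.88. Against both WT libraries, those of del-cIDR were lower at 10, 40 and 60 min and higher at 20 min. Averaged over the times Macrod2 fell by 0.42 ± 0.12 in del-cIDR (limma, adjusted p = 0.0179), with a difference of -1.02 at 10 min that rests on 33 and 13 reads in del-cIDR. Without the 10 min libraries the difference was -0.22 and on the spike-in scale -0.25, and neither passed (limma, adjusted p = 0.0933 and 0.434). Against KO it did not pass (-0.19, 95% interval -0.45 to 0.06). In KO it was -0.23 from WT (95% interval -0.49 to 0.02, limma, adjusted p = 0.167), it passed in a fit on KO and WT alone (-0.23, limma, adjusted p = 0.0310), and at 60 min the KO libraries lay 0.67 below the WT libraries without overlap.

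Relative log2 values of Gphn at 10, 20, 40 and 60 min were 0.10 / -0.04, -0.04 / -0.03, 0.35 / 0.42 and 0.37 / 0.58 in del-cIDR. In KO the Gphn pairs were -0.30 / -0.06, -0.29 / 0.20, -0.30 / -0.08 and 0.10 / 0.21. In WT they were -0.20 / 0.21, -0.13 / 0.12, 0.01 / 0.19 and 0.50 / 0.37. The del-cIDR libraries lay above the KO libraries at 10, 40 and 60 min. Gphn was 0.28 ± 0.09 higher in del-cIDR than in KO (limma, adjusted p = 0.0176), a difference that did not pass on the spike-in scale (0.14, limma, adjusted p = 0.624). Neither mutant passed against WT, at 0.08 in del-cIDR (95% interval -0.11 to 0.26) and -0.20 in KO (95% interval -0.38 to -0.01, limma, adjusted p = 0.0995).

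Immp2l passed in no genotype comparison. Its pairs held 13 / 25, 69 / 58, 78 / 77 and 69 / 55 reads in del-cIDR at 10, 20, 40 and 60 min. The KO pairs held 61 / 29, 56 / 31, 61 / 52 and 82 / 62 reads. The WT pairs held 47 / 13, 34 / 27, 66 / 79 and 79 / 66 reads. With so few reads the libraries of a pair often lay as far apart as the genotypes. At 20 min, levels were 46.6 and 77.8 in del-cIDR, 38.3 and 60.2 in KO, and 22.1 and 27.7 in WT, without overlap between either mutant and WT. The differences over all times were 0.12 in del-cIDR against WT (95% interval -0.21 to 0.45), 0.22 in KO against WT (-0.11 to 0.55) and -0.10 in del-cIDR against KO (-0.43 to 0.23). A p that misses the threshold does not show that the genotypes are alike, and these intervals bound the differences that remain possible.

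**Figure D3:**
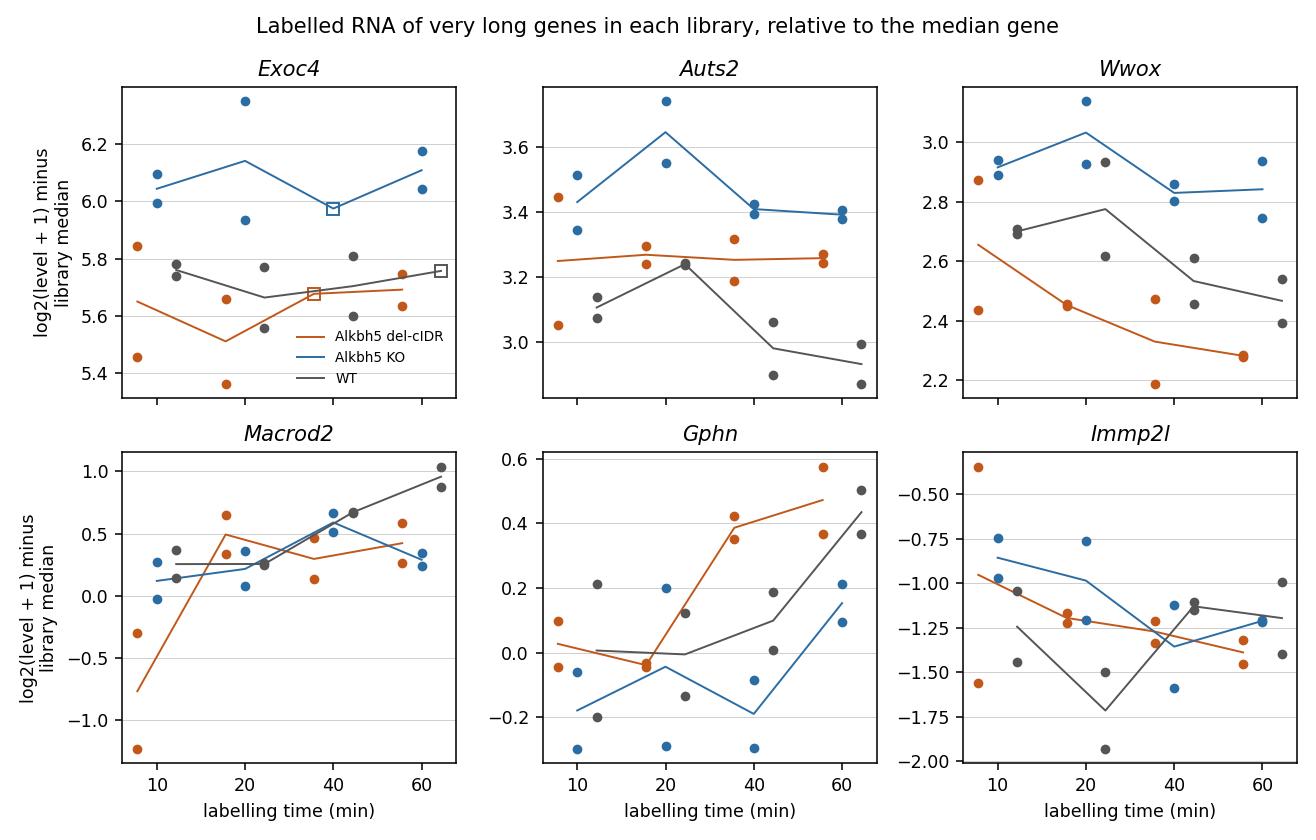
Log2(level + 1) minus the library median against labelling time for the 6 tested genes; each point is a library, lines join the group means of Alkbh5 del-cIDR, Alkbh5 KO and WT, and open squares mark groups of Exoc4 with a single value. KO lies above WT at all times in Exoc4 and Auts2, Macrod2 and Gphn climb with time, and the del-cIDR libraries of Macrod2 start low at -0.30 and -1.24.

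The length of the pulse was compared next, since labelled RNA of a gene accumulates as long as polymerases on it keep elongating. All 6 tested genes gained labelled RNA with time on the spike-in scale. In WT the slope of the level per doubling of minutes was 0.70 (Wwox), 0.71 (Auts2), 0.80 (Exoc4), 0.88 (Immp2l), 0.95 (Gphn) and 1.08 (Macrod2) on the log2 scale, where a level proportional to time gives a slope of 1. The same slopes ran from 0.83 (Immp2l) to 1.39 (Macrod2) in del-cIDR and from 0.44 (Immp2l) to 0.73 (Macrod2) in KO. The median tested gene had slopes of 0.99 in del-cIDR, 0.62 in KO and 0.80 in WT. Mean levels of Exoc4 were 1603 ± 342, 6748 ± 3085, a single 10958, and 9643 ± 2444 in del-cIDR at 10, 20, 40 and 60 min (SD, n = 2). They were 4901 ± 904, 7001 ± 2065, a single 10140, and 15214 ± 1753 in KO, and 2431 ± 383, 4278 ± 191, 8923 ± 3610, and a single 9520 in WT. Macrod2 averaged 18.4 ± 8.13, 208 ± 96.9, 259.8 ± 7.0 and 253 ± 89.0 in del-cIDR, 79.0 ± 0.732, 113 ± 26.5, 241 ± 10.5 and 268 ± 27.3 in KO, and 53.3 ± 15.3, 99.7 ± 4.89, 267 ± 83.1 and 339 ± 42.2 in WT. In del-cIDR the 60 min means of both genes were no higher than the 40 min means, whereas in KO and in WT they were higher for both genes. The median of all tested genes moved the same way. Its log2 ratio to 10 min went from 2.89 at 40 min to 2.72 at 60 min in del-cIDR. It went from 1.20 to 1.67 in KO and from 2.01 to 2.09 in WT. These steps were not tested.

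Relative to the median gene, 2 of the 6 genes had a positive trend over the 3 genotypes and 1 a negative trend, where 54.6% of all genes passed, 35.2% positive and 19.4% negative. Macrod2 gained 0.27 ± 0.05 per doubling of minutes (log2 ± SE, limma, adjusted p = 4.01e-04) and Gphn 0.14 ± 0.04 (limma, adjusted p = 0.00341). Wwox lost 0.10 ± 0.03 (estimate -0.10, limma, adjusted p = 0.0140). Exoc4 (0.01, 95% interval -0.07 to 0.10), Auts2 (-0.04, -0.09 to 0.01) and Immp2l (-0.08, -0.22 to 0.05) did not pass. The trend of Macrod2 passed in each of the 24 fits that left out 1 library, with values of 0.21 to 0.32. These uncalled trends depended on the processing. Auts2 passed as negative without the 10 min libraries (-0.13, limma, adjusted p = 0.00865) and relative to its own chromosome (-0.06, limma, adjusted p = 0.0446), and as positive without the filter on low levels (0.11, limma, adjusted p = 0.00583), where Exoc4 also passed as positive (0.16, limma, adjusted p = 0.0167). The trend of Wwox was negative and passed relative to its own chromosome too, and did not pass without the filter (0.05). Without the filter the library median is taken over more genes, which moves all genes of a library alike. The trends of Macrod2 (0.41) and Gphn (0.29) were then also higher. Relative to genes of the same class of span, an alternative chosen after seeing the data, Wwox (-0.20), Immp2l (-0.18), Auts2 (-0.14) and Exoc4 (-0.08) all passed as negative (limma, adjusted p = 5.92e-06, 0.0140, 7.62e-04 and 0.0237). Macrod2 still passed as positive there (0.17, limma, adjusted p = 0.0184), and Gphn did not pass (0.06, limma, adjusted p = 0.156).

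In the authors' deposited table, which gives log2 ratios to 10 min of the same genotype, the ratios at 60 min for Macrod2 were 3.77 in del-cIDR, 1.76 in KO and 2.67 in WT. For Gphn they were 3.05, 1.90 and 2.42. Both lay above the median of the tested genes in that table, 2.72 in del-cIDR, 1.67 in KO and 2.09 in WT. The ratios at 60 min were 2.59, 1.63 and 1.97 for Exoc4, 2.55, 1.52 and 1.80 for Auts2, 2.17, 1.51 and 1.75 for Wwox, and 2.03, 1.22 and 2.01 for Immp2l, in the same order of genotypes. These 4 genes lay below the median in each genotype. At 60 min the same 2 genes were thus above and the same 4 below the median in all 3 genotypes. Earlier times did not all show this split. In the authors' deposited table at 40 min, Gphn was below the median in KO (1.12 against 1.20) and Immp2l just above it in WT (2.03 against 2.01). At 20 min in KO, Wwox (0.52), Exoc4 (0.51) and Auts2 (0.61) were above the median of 0.42. The slope over all times in WT was higher for Immp2l (0.88) than for the median gene (0.80), and that of Exoc4 (0.80) was level with it. These ratios hold the same reads as the trends and are no separate support for them.

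No difference in trend between genotypes passed for the 6 genes. Compared with WT, 0 passed in KO and 0 in del-cIDR (limma, adjusted), and 0 reached an unadjusted p of 0.05 in either comparison. Over all tested genes 0.00891% passed in KO against WT, all with a more positive slope in KO, and 0.989% in del-cIDR against WT, 0.722% with a more positive and 0.267% with a more negative slope in del-cIDR. The widest intervals were those of Immp2l, -0.25 per doubling in KO against WT (-0.59 to 0.08) and -0.24 in del-cIDR against WT (-0.57 to 0.10), and Macrod2, -0.16 (-0.42 to 0.09) and 0.12 (-0.14 to 0.38). For Auts2 the differences in slope were 0.05 in KO (-0.08 to 0.18) and 0.09 in del-cIDR (-0.04 to 0.22).

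Another 222 protein-coding genes span at least 500 kb, and 140 of them were tested. Their median mean level of 81.4 was below the 134 of all tested genes. In del-cIDR against WT 35 of the 140 (25%) fell and 5 (3.57%) rose, where 14.8% and 10.4% of all genes did, and their median difference was -0.15 against -0.02 for all genes. Without the 10 min libraries 31 fell and 11 rose, and on the spike-in scale, where the median gene lies higher in del-cIDR, 8 fell and 2 rose and the median was 0.05. Without the filter on low levels, where the library median is taken over more genes, 15 fell and 5 rose. In KO against WT 36 (25.7%) rose and 30 (21.4%) fell, where 14.6% and 15.5% of all genes did, with a median of 0.03. On the spike-in scale 44 rose and 5 fell there (median 0.34), and without the filter 31 rose and 18 fell. Between the mutants 54 (38.6%) were lower and 28 (20%) higher in del-cIDR than in KO (median -0.12), where 22.4% and 21% of all genes were. On the spike-in scale 46 were lower and 7 higher, and relative to genes of the same class of span 40 were lower and 41 higher (median 0.06). That last centring subtracts the median deviation of the class that these 140 genes largely make up, so a near-even split is built in. With labelling time 52 (37.1%) had a positive trend, close to the 35.2% of all genes, and 7 (5%) a negative trend, against 19.4% of all genes (median 0.10 against 0.04). These counts were 104 and 1 without the filter and 139 and 0 on the spike-in scale, both of which change the reference for all genes alike. They were 24 and 20 relative to the same class, where a near-even split is again built in. By class of span among the 14619 tested protein-coding genes, the median difference of del-cIDR from WT lay between -0.02 and 0.00 in every class up to 500 kb and at -0.15 among the 145 tested genes of at least 500 kb (5 of the 7 genes included), of which 24.8% fell and 4.14% rose. Auts2 (0.19) and Immp2l (0.12) lay above the upper quartile of that class (0.10), and Macrod2 (-0.42) lay below its lower quartile (-0.32). Relative to genes of the same class, Auts2 was 0.34 higher in del-cIDR than in WT (limma, adjusted p = 0.00215) and the fall of Macrod2 did not pass (-0.28, limma, adjusted p = 0.137).

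**Figure D4:**
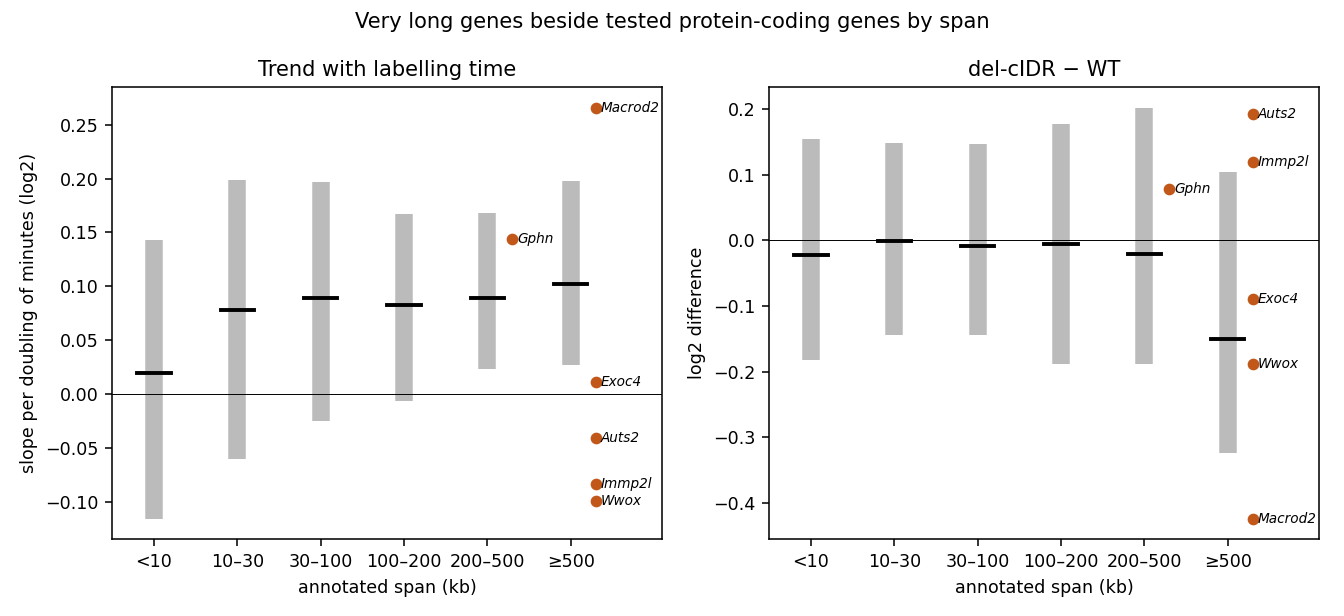
Trend with labelling time (left, log2 slope per doubling of minutes) and del-cIDR minus WT (right, log2 difference) by annotated span; black bars are medians and grey bars the quartile range of the tested protein-coding genes in a class, and orange points are the 6 tested genes, drawn beside their class. The median trend is 0.02 under 10 kb and 0.10 from 500 kb on, where Wwox, Immp2l, Auts2 and Exoc4 lie below the lower quartile, and the median del-cIDR difference is -0.15 from 500 kb on.

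The highest mean levels among the other genes of at least 500 kb were those of Etl4, Ryr2, Dock1, Pard3 and Dmd. Ryr2, a calcium release channel of muscle and neurons, fell in KO by 0.57 ± 0.10 (limma, adjusted p = 9.20e-04). Etl4 rose in KO by 0.33 ± 0.07, and Pard3, a cell polarity protein on chromosome 8 like Wwox, by 0.39 ± 0.07 (limma, adjusted p = 0.00517 and 0.00153). Dmd, the gene of dystrophin and at 2257.3 kb longer than any of the 7, rose in del-cIDR by 0.25 ± 0.04 (limma, adjusted p = 0.00112) and had a positive trend of 0.14 ± 0.02 (limma, adjusted p = 2.80e-05). Dock1, an activator of the GTPase Rac, fell in del-cIDR by 0.31 ± 0.09 (limma, adjusted p = 0.0271).

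Shorter genes lie inside these spans, and without the counting rules reads that fall on both cannot be assigned. Protein-coding genes wholly inside a span were Flrt3 in Macrod2 and Lrrn3 in Immp2l. Flrt3, a membrane protein of cell adhesion that spans 20.6 kb, had a mean level of 69.2 and rose in KO by 0.67 ± 0.13 (limma, adjusted p = 0.00130), where Macrod2 stood at -0.23. Its trend was 0.44 ± 0.05 (limma, adjusted p = 1.02e-05), the same sign as that of Macrod2. Lrrn3, a leucine-rich repeat protein of neurons with a mean level of 38.8, passed in no comparison, like Immp2l around it. Auts2 overlapped 25 annotated genes, of which 13 were tested. The highest levels of an overlapping gene were 272 for Gm13854 in Exoc4, beside 7614 for Exoc4 itself, and 160 for Gm48225 in Gphn, beside 150 for Gphn itself.

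Profiles over genotypes and times were compared between the 6 genes. Over the 12 group means, which share libraries and the median gene, Pearson correlations were 0.78 for Wwox with Exoc4, 0.65 for Exoc4 with Auts2 and 0.63 for Wwox with Auts2, and -0.76 for Wwox with Gphn. Those of Macrod2 and Immp2l with any other of the 6 lay between -0.36 and 0.35. The mean profile of the 6 does not stand for each of them. The correlation with the mean of the others was 0.71 for Exoc4, 0.14 for Auts2 and 0.12 for Wwox. It was -0.03 for Immp2l, -0.25 for Macrod2 and -0.41 for Gphn. The genes most like the mean profile of the 6 were Ankrd26 (r = 0.94, chromosome 6), 4930513N10Rik (0.94, chromosome 8), Cnbp (0.94, chromosome 6), the unnamed ENSMUSG00002076302 (0.94) and Cd47 (0.94, chromosome 16). They were picked as the highest of all tested genes, so a high r follows from the choice. Of the 4 with a known position, 3 lie on chromosomes 6 and 8, those of Exoc4 and Wwox, and the longest of them spans 114.5 kb.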

How the data were processed

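EU-labelled RNA of E14TG2a mouse embryonic stem cells was sequenced in 24 libraries, 2 for each of 3 Alkbh5 genotypes at 4 labelling times. Per the file headers and values, the deposited gene table holds 9 columns of log2 ratios of 20, 40 or 60 min to 10 min of the same genotype, scaled by the authors to the Drosophila spike-in, with both replicates combined. The column prefix ki was taken as del-cIDR, the only genotype left. The submitters' processing notes name HISAT2, SAMtools, Picard and GRCm39; the sources used here give neither the counter nor the annotation.

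The ratios came out as whole reads per library, with a constant of 40000 and 1 added, for 100% of lines with a value (largest error 4.4e-15 on the log2 scale). Which library of a pair held which reads was unclear in 1 or more groups for 2836 tested genes (12.6%), and such a group entered as 1 value. Libraries held 3129081 to 22159977 gene reads, and a floor of 3 reads covers counting error only. Tested were the 22448 genes whose mean level reached 10 and which had reads in 6 or more libraries, in limma 3.58.1 (R 4.3.3) on log2(level + 1) minus the library median, with 1 coefficient per group. P-values were adjusted by Benjamini-Hochberg over all tested genes, with a threshold of 0.05. Fold changes of low genes are understated by the 1 added.

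Symbols, spans and exon lengths came from GENCODE M21 for 51948 of 56941 gene IDs. Named genes were the 7 chosen, genes nested in them, the 5 most alike, and the 5 with the highest level among other genes of at least 500 kb. The members and lists were chosen with earlier results of these data known. Alternatives were the spike-in scale, a pseudocount of 5, no filter, other sets of libraries, group sums and other centring. Planned tests on repeats within genes were not run, because no annotation of GRCm39 was at hand. The fit was tested on simulated data.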

Additional observations from a re-analysis of the deposited data

Results flagged for a closer look

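Macrod2 and Immp2l differed between del-cIDR and WT in opposite directions at different labelling times, with the libraries of each group apart. For Macrod2 the difference (log2, del-cIDR minus WT) at 10, 20, 40 and 60 min was -1.02, 0.24, -0.37 and -0.54. For Immp2l it was 0.29, 0.52, -0.14 and -0.19 at the same times, and its libraries were apart at 20 and 40 min only. At 40 min they were narrowly apart, at -1.33 / -1.21 in del-cIDR and -1.15 / -1.11 in WT. How many of all tested genes show such a pattern was not counted. The differences between single times were not tested, and the trend with time did not differ between del-cIDR and WT for either gene (limma, adjusted p = 0.688 for Macrod2 and 0.505 for Immp2l). Each group has 2 libraries, and the 10 min del-cIDR libraries held 33 and 13 reads of Macrod2. The 20 min WT libraries held 34 and 27 reads of Immp2l.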

How the results depend on the processing

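No paired analysis was possible because the deposited columns carry no replicate numbers. The planned tests on repeats within genes and the fit of the mean trend on 2 genotypes were not run. Except where another cause is given by the construction of an alternative, the cause of a change was not tested. On the spike-in scale, which keeps the shift of the median gene, signs turned for KO minus WT in Macrod2 (0.077) and Gphn (0.11), for del-cIDR minus WT in Exoc4 (0.086), for the trend in Wwox (0.70), Immp2l (0.72) and Auts2 (0.76), for the KO minus WT trend in Wwox (-0.13), Exoc4 (-0.14) and Auts2 (-0.13), and for the del-cIDR minus WT trend in Wwox (0.15). The share of calls that were higher was 89.5% there against 48.6% for KO minus WT, 72.1% against 41.4% for del-cIDR minus WT, 27.8% against 48.4% for del-cIDR minus KO and 100% against 64.5% for the trend. Genes called on that scale numbered 1787 for del-cIDR minus WT, 5303 for del-cIDR minus KO, 22297 for the trend, 0 for the KO minus WT trend and 23 for the del-cIDR minus WT trend.

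Dropping the filter takes the library median over more genes, which by construction moves all genes of a library alike. Without the filter, signs turned for the trend in Wwox (0.047), Immp2l (0.063) and Auts2 (0.11) and for the KO minus WT trend in Wwox (-0.012), Exoc4 (-0.061) and Auts2 (-0.0199), with 3333 genes called for del-cIDR minus WT, 27711 for the trend and 2 for the del-cIDR minus WT trend. Without the 10 min libraries they turned for del-cIDR minus KO in Macrod2 (0.039), the trend in Immp2l (0.0236), the KO minus WT trend in Exoc4 (-0.0936) and the del-cIDR minus WT trend in Wwox (0.0897) and Macrod2 (-0.50), with 0 and 24 genes called for the KO and del-cIDR trend differences. Group sums gave -0.0065 for the KO minus WT trend of Exoc4 and 3760, 2223, 0 and 0 genes called for KO minus WT, del-cIDR minus WT and the KO and del-cIDR trend differences. A pseudocount of 5 gave -0.0142 for the KO minus WT trend of Exoc4, and a fit on the compared genotypes called 30 genes for the del-cIDR minus WT trend. Relative to the own chromosome, KO minus WT was -0.0483 in Wwox and -0.0078 in Exoc4, del-cIDR minus KO 0.0259 in Immp2l and 0.0067 in Exoc4, and the KO minus WT trend -0.0145 in Exoc4. Relative to genes of the same class of span, an alternative chosen and its form revised after seeing the data, del-cIDR minus WT was 0.0601 in Exoc4, del-cIDR minus KO 0.0811 in Immp2l, the trend -0.082 in Exoc4 and the KO minus WT trend -0.0328 in Exoc4.

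Calls lost beyond those given with the results were del-cIDR minus WT in Macrod2 without the filter (-0.37) and on group sums (-0.40), del-cIDR minus WT in Auts2 on the compared genotypes (0.19) and on group sums (0.18), del-cIDR minus KO in Auts2 on the spike-in scale (-0.35), on group sums (-0.21) and within its class of span (-0.03), del-cIDR minus KO in Gphn on group sums (0.27), and the trend in Wwox with a pseudocount of 5 (-0.07). Calls gained are given with the results, except the trend of all 6 genes on the spike-in scale, where that of Exoc4 was 0.78.

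Leaving out each library in turn, genes called ranged from 5946 to 7294 (KO minus WT), 4757 to 6131 (del-cIDR minus WT), 8895 to 10003 (del-cIDR minus KO), 11479 to 12357 (trend), 2 to 246 (KO minus WT trend, 246 without the first WT library of 10 min) and 21 to 588 (del-cIDR minus WT trend, 588 without the second del-cIDR library of 10 min). Signs turned when a single library was left out for del-cIDR minus WT in Immp2l (-0.0328 to 0.2713), del-cIDR minus KO in Immp2l (-0.2517 to 0.0525), the trend in Exoc4 (-0.0114 to 0.0348), KO minus WT trend in Exoc4 (-0.0207 to 0.0217) and Gphn (-0.1343 to 0.0133), and del-cIDR minus WT trend in Wwox (-0.1176 to 0.0394), Macrod2 (-0.0464 to 0.2892), Exoc4 (-0.0387 to 0.0997) and Gphn (-0.0216 to 0.1259). None of these values passed as reported. Without either del-cIDR library of 10 min KO minus WT passed in Macrod2 (-0.23, limma, adjusted p = 0.0447), and without the second KO library of 20 min or the first WT library of 10 min it passed in Gphn (-0.26 and -0.25). Without the second del-cIDR library of 10 min or the first WT library of 20 min, del-cIDR minus WT passed in Wwox (-0.24 and -0.23). Without the first del-cIDR library of 10 min, del-cIDR minus KO passed in Macrod2 (-0.31) and the trend in Immp2l (-0.16), and without the second the trend passed in Auts2 (-0.064). Reads kept Fhit out of the tests and were fewest, among the 6 tested genes, for Immp2l.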
